A study of Mus musculus with 6 samples.

Results

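The B and plasma cell genes described here are 9 genes chosen by name, and all 9 were among the 33639 gene symbols of the deposited tables. They were Igha and Ighm (the constant regions of the IgA and IgM heavy chains), Igkc (the kappa light chain constant region), Jchain (the joining chain of polymeric antibodies), Cd79a and Cd79b (the signalling pair of the B cell receptor), Ms4a1 (the CD20 surface protein), Mzb1 (a chaperone of the endoplasmic reticulum) and Pou2af1 (the coactivator OBF1). The libraries came from liver after a high sitosterol, an ergosterol, a stigmasterol or a low sitosterol diet, and from the adrenal gland after a high or a low sitosterol diet. Each of these 6 groups was 1 library, with no pooling stated and so taken as 1 mouse; diet and mouse cannot be told apart, and no p-value is given. All mice were labelled as male with a whole-body knockout of Abcg8, which together with Abcg5 pumps plant sterols out of hepatocytes and gut cells. All had received a low sterol diet with 0.005% ezetimibe, a blocker of intestinal sterol uptake, before weaning, and the test diets then ran for 12 weeks. Sitosterol and stigmasterol are plant sterols that differ by a side-chain double bond, and ergosterol is the main fungal sterol. The sterol doses, strain background and age beyond the diet's duration are not stated in the sources used here, so the values of the diets stand side by side without a dose match. No group had intact Abcg8, and the other diets were set against the low sitosterol diet.

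B cells carry an antibody on their surface as part of the B cell receptor, in which the CD79A and CD79B proteins pass on the signal. Once activated, they can switch from IgM to IgG, IgA or IgE and become plasma cells, which lose most surface receptor and secrete antibody in bulk. Secreted IgM and IgA can be joined by the J chain into polymers, and these are the forms that the polymeric immunoglobulin receptor carries across epithelia, in mice also into bile. In a healthy liver B cells are a small lymphocyte fraction in sinusoids and portal tracts, and IgA-secreting cells of the gut are the main source of the IgA that reaches bile.

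Library totals ran from 41546678 to 50573529 estimated counts, and the limit that a count of 0 allows, taken as 3 counts, lay between 0.0440 and 0.0733 scaled CPM. Abcg8 itself had 490 counts in the high sitosterol, 394 in the ergosterol, 788 in the stigmasterol and 51 in the low sitosterol liver, against 3 and 2 in the high and low sitosterol adrenals. Which part of the gene was deleted is not stated in the sources used here, so these totals do not check the knockout. The Y-linked genes Eif2s3y and Ddx3y had 1188 to 2201 counts in the 4 livers but 0 to 3 in both adrenals, which goes against the male label of the 2 adrenal libraries. The low sitosterol liver held adrenal cortex transcripts: the 5 cortex markers had a median of 0.165% of their adrenal level there, against 0.007% to 0.013% in the other livers. That share of the adrenal Ighm level would be 0.0682 scaled CPM, and Ighm in this liver measured 8.62 scaled CPM. Hepatocyte markers in the adrenals had a median of 0.024% to 0.0286% of their liver level.

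Levels that are set side by side between genes are given in TPM, a share of transcripts per length. Ratios between libraries were taken from estimated counts scaled with TMM factors (scaled CPM), on the log2 scale. Genes were counted as higher or lower at a ratio of at least 2-fold with an exact 95% interval that excluded equality, among genes with at least 1 CPM in at least 1 library of the tissue. Intervals cover counting error only and say nothing on the spread between mice. Of the 9 genes, 6 reached this minimum in liver (all but Ms4a1, Mzb1 and Pou2af1) and 5 in adrenal (Igha, Ighm, Igkc, Jchain and Cd79b); 8 had counts in every library, and Pou2af1 was at 0 in the low sitosterol liver. In bulk tissue, fewer cells of a type and less RNA per cell cannot be told apart, and this holds for every level below.

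**Figure D1:**
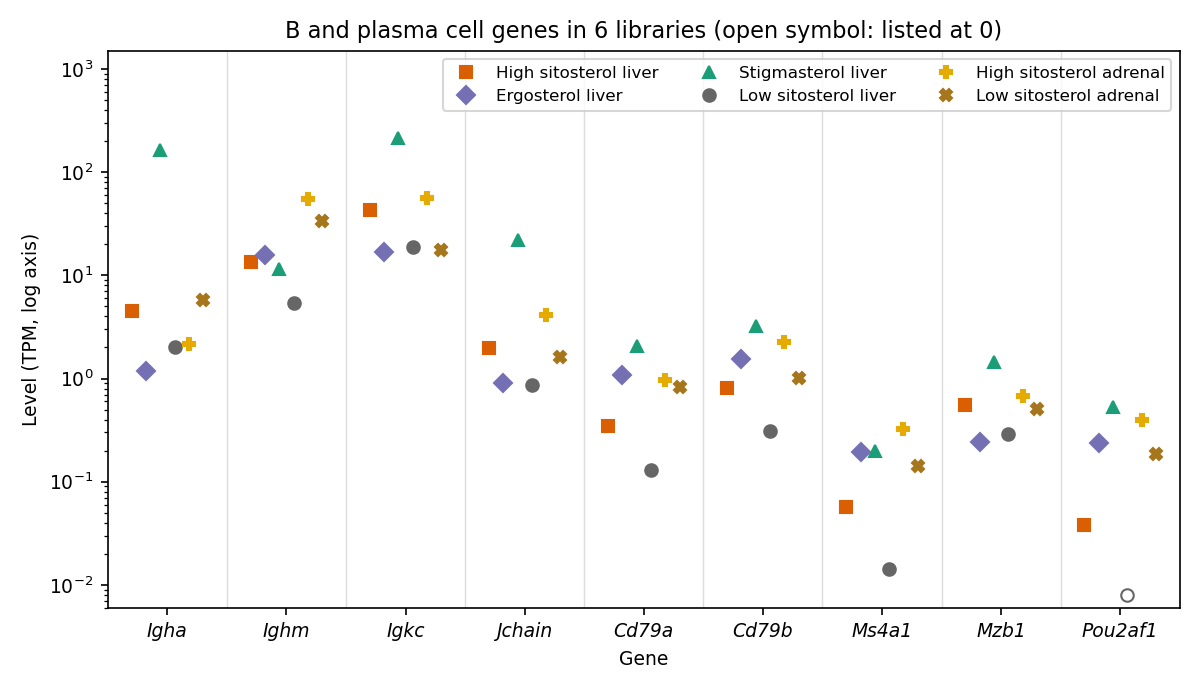
The level of each gene is plotted in TPM on a log axis, with 1 symbol per library and an open symbol for the count of 0. The stigmasterol liver has the highest level of 7 of the 9 genes, Ighm is highest in the adrenals, and Ms4a1 is highest in the high sitosterol adrenal.

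Igha, at 12:113254830-113260236 on the minus strand (GRCm38), had the widest spread of the 9 genes. It had 4.49 TPM in the high sitosterol, 1.18 in the ergosterol, 165 in the stigmasterol and 2.02 in the low sitosterol liver, and 2.18 TPM in the high sitosterol adrenal against 5.81 in the low sitosterol adrenal. The stigmasterol liver stood far above every other library, with 6454 estimated counts where the other 5 had 43 to 187. Against the low sitosterol liver, the scaled level was 42-fold higher with stigmasterol (log2 5.39, interval 5.10 to 5.71), 1.79-fold higher with high sitosterol (log2 0.84, interval 0.48 to 1.22) and 2.31-fold lower with ergosterol (log2 -1.21, interval -1.78 to -0.68). The stigmasterol ratio was 6.08 under total-count scaling and 6.28 on the TPM scale. The ergosterol ratio was -0.73 on the TPM scale and was then not counted as lower. Ergosterol and stigmasterol livers were 97.2-fold apart, with ergosterol the lower. In the adrenal, the high sitosterol library was 2.61-fold lower than the low sitosterol library, the opposite direction to that of the same diets in liver.

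Ighm, on the same chromosome at 12:113418558-113422730, did not follow Igha. Its level was 13.4 TPM in the high sitosterol, 15.7 in the ergosterol, 11.6 in the stigmasterol and 5.36 in the low sitosterol liver, and 54.9 TPM in the high sitosterol adrenal against 33.6 in the low sitosterol adrenal. Both adrenals lay above all 4 livers, and among the livers the low sitosterol one was lowest. The ergosterol liver was 2.29-fold above the low sitosterol liver (log2 1.19, interval 1.01 to 1.38) and the high sitosterol liver 2.05-fold above it (log2 1.03, interval 0.85 to 1.22), while the stigmasterol liver was 1.23-fold above it, under the 2-fold limit (log2 0.29). That last ratio was 0.99 under total-count scaling and 1.10 on the TPM scale, where it was counted as higher.

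Jchain, whose protein links IgA and IgM into polymers, was led by the stigmasterol liver, as Igha was, with the ergosterol and low sitosterol livers close together at the bottom. It had 1.97 TPM in the high sitosterol, 0.915 in the ergosterol, 22.1 in the stigmasterol and 0.872 in the low sitosterol liver, and 4.16 TPM in the high sitosterol adrenal against 1.62 in the low sitosterol adrenal. The stigmasterol liver was 13.4-fold above the low sitosterol liver (log2 3.74, interval 3.34 to 4.18; 4.43 under total-count scaling and 4.51 on the TPM scale). The ergosterol and low sitosterol livers did not differ beyond the counting interval (log2 -0.27, interval -0.88 to 0.33), and that ratio turned to 0.06 on the TPM scale. In the adrenal, Jchain was 2.53-fold higher with high than with low sitosterol, where Igha was lower.

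The J chain binds a cysteine next to last in the tail of the secreted IgA and IgM heavy chains. The last 60 coding bases of the secreted transcripts are shown because this shared tail is what ties Jchain to both of these heavy chains and not to IgG. Capitals mark the codon of that cysteine; the sequences are those of GENCODE M21 on GRCm38, chromosome 12, minus strand.
Igha secreted tail: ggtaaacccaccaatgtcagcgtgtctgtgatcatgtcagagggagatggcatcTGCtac
Ighm secreted tail: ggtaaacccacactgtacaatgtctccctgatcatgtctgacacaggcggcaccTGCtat
The tails were identical at 41 of 60 bases and 12 of 20 residues. The tables give 1 value per gene, so secreted and membrane-bound forms of either heavy chain were not separated in these values.

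Igkc, at 6:70726435-70726966 on the plus strand, is the constant region of most mouse light chains. It had the highest TPM of the 9 genes in every library except the low sitosterol adrenal, where Ighm was higher. It had 43.0 TPM in the high sitosterol, 16.7 in the ergosterol, 213 in the stigmasterol and 18.9 in the low sitosterol liver, and 56.1 TPM in the high sitosterol adrenal against 17.5 in the low sitosterol adrenal. The stigmasterol liver was 5.94-fold above the low sitosterol liver (log2 2.57, interval 2.40 to 2.74; 3.26 under total-count scaling and 3.49 on the TPM scale), and the ergosterol liver 1.49-fold below it. The high sitosterol adrenal was 3.27-fold above the low sitosterol adrenal. A long noncoding gene, Gm30211, covers all 532 bases of Igkc on the same strand, so the split of reads between them is uncertain.

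The B cell receptor pair gave another order of livers. Cd79a had 0.346 TPM in the high sitosterol, 1.08 in the ergosterol, 2.05 in the stigmasterol and 0.130 in the low sitosterol liver, and 0.968 TPM in the high sitosterol adrenal against 0.821 in the low sitosterol adrenal. Cd79b had 0.808 TPM in the high sitosterol, 1.54 in the ergosterol, 3.22 in the stigmasterol and 0.307 in the low sitosterol liver, and 2.24 TPM in the high sitosterol adrenal against 1.00 in the low sitosterol adrenal. For both genes the ergosterol liver was second, above the high sitosterol liver, whereas for Igha and Igkc it was the lowest of the livers. Against the low sitosterol liver, Cd79a was 6.02-fold higher with ergosterol (log2 2.59, interval 1.58 to 3.94) and 8.0-fold higher with stigmasterol (log2 3.0, interval 2.03 to 4.31). Cd79b was 3.89-fold higher with ergosterol (log2 1.96) and 5.76-fold higher with stigmasterol (log2 2.53). Under total-count scaling the stigmasterol ratios were 3.67 for Cd79a and 3.21 for Cd79b. With high sitosterol the Cd79b ratio was 2.20-fold (log2 1.14, interval 0.27 to 2.13) and the Cd79a ratio, from 20 counts against 8, had an interval that reached below equality (log2 1.10, interval -0.10 to 2.54). In the adrenal, Cd79b was 2.25-fold higher with high than with low sitosterol and Cd79a did not differ beyond its interval (log2 0.27, interval -0.45 to 1.01).

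The 3 remaining genes had few reads. Ms4a1, a surface marker of B cells that plasma cells lack, had 7 counts in the high sitosterol, 21 in the ergosterol, 24 in the stigmasterol and 2 in the low sitosterol liver, and 29 counts in the high sitosterol adrenal against 11 in the low sitosterol adrenal. The ratio to the low sitosterol liver was 2.64 on the log2 scale with stigmasterol (interval 0.84 to 5.97) and 3.0 with ergosterol (interval 1.24 to 6.41), and neighbouring livers in the order did not differ beyond counting error. An antisense gene, 4930526L06Rik, spans the locus, and the library kit does not mark strand, so these counts are uncertain.

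Pou2af1, needed for germinal centres and binding with OCT1 or OCT2 at octamer motifs, had 2 counts in the high sitosterol, 17 in the ergosterol, 41 in the stigmasterol and 0 in the low sitosterol liver, and 31 counts in the high sitosterol adrenal against 9 in the low sitosterol adrenal. With the low sitosterol liver set at 3 counts, its level was at least 8.21-fold higher with stigmasterol and at least 5.21-fold higher with ergosterol. Mzb1, which helps antibody chains to assemble in marginal zone B and plasma cells, had 18 counts in the high sitosterol, 7 in the ergosterol, 44 in the stigmasterol and 10 in the low sitosterol liver, and 16 counts in the high sitosterol adrenal against 10 in the low sitosterol adrenal. For Mzb1, no neighbours in the order of levels differed beyond counting error, although the stigmasterol and low sitosterol livers did (log2 1.37, interval 0.39 to 2.56). Mzb1 shares its 2100 bases with a gene annotated on the same strand as SPATA24, and part of Pou2af1 overlaps Gm47828, which makes both counts uncertain.

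**Figure D2:**
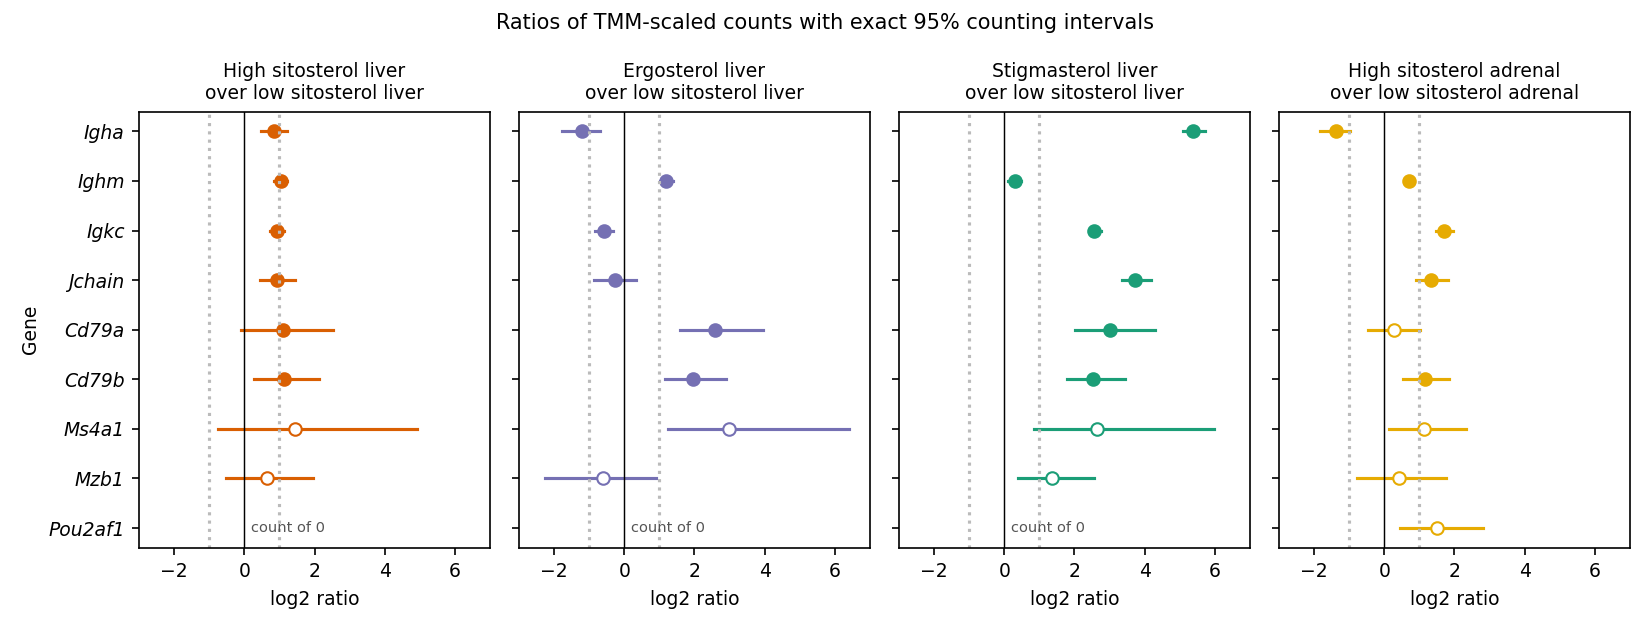
The log2 ratio of TMM-scaled counts is plotted for each gene in the 4 comparisons with the low sitosterol diet, with exact 95% counting intervals as lines, dotted lines at 2-fold and white points for genes under the minimum of 1 CPM. Igha lies at 5.39 in the stigmasterol panel and below 0 in the ergosterol and adrenal panels, while Cd79a and Cd79b lie above 1 in the ergosterol and stigmasterol panels.

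With stigmasterol against low sitosterol in liver, 5 of the 6 genes at the minimum were higher and none was lower; of all 13378 liver genes 21.7% were higher and 7.79% lower. The median of the 6 log2 ratios was 2.78, against 0.08 over all genes. Ighm was the gene left out. On the TPM scale it was counted too, which made 6 of 6, where 6223 of the 13378 genes were higher and 311 lower. The median over all genes was 0.94 on that scale. With ergosterol against low sitosterol, 3 of the 6 were higher (Ighm, Cd79a and Cd79b) and 1 lower (Igha), where 6.05% of all genes were higher and 5.81% lower. The median over the 6 was 0.46, against 0.02 over all genes, with the receptor pair above and the IgA chain below equality; on the TPM scale Igha was not counted as lower. With high against low sitosterol in liver, 2 of the 6 were higher (Ighm and Cd79b) and none lower, where 8.67% of all genes were higher and 4.3% lower. All 6 ratios lay between 0.84 and 1.14, close to the 2-fold limit, and their median was 0.99, against -0.05 over all genes.

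In the adrenal, 3 of the 5 genes at the minimum were higher with high than with low sitosterol (Igkc, Jchain and Cd79b) and 1 was lower (Igha), where 3.83% of 14224 genes were higher and 2.31% lower. The median of the 5 ratios was 1.17, against 0.00 over all genes.

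Counted over all 9 genes with no minimum, more genes could be counted. With stigmasterol against low sitosterol 8 were higher (18.5% of all genes with a count in either library were higher and 8.86% lower). With ergosterol 5 were higher and 1 lower (5.58% and 6.61% of all genes), and with high sitosterol 2 were higher and none lower in liver (8.06% and 5.63%). In the adrenal 5 were higher and 1 lower with high sitosterol (4.72% and 2.94%).

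The direct liver comparisons share libraries with those above. With stigmasterol against high sitosterol, 5 of the 6 genes were higher (16.5% of all genes were higher and 5.59% lower). They ran from Cd79b at 1.38 to Igha at 4.55 on the log2 scale, and Ighm was at -0.74. Under total-count scaling this Ighm ratio was -0.24, and on the TPM scale it was -0.21. With ergosterol against high sitosterol, Igha, Igkc and Jchain were lower (log2 -2.05, -1.49 and -1.21) and Cd79a was higher (log2 1.49), where 6.18% of all genes were higher and 8.96% lower. With ergosterol against stigmasterol, Igha, Igkc and Jchain were lower (log2 -6.60, -3.14 and -4.01), where 7.09% of all genes were higher and 19.4% lower. The receptor pair in that comparison was at -0.40 for Cd79a (interval -0.89 to 0.08) and -0.56 for Cd79b (interval -1.01 to -0.13), so that the ergosterol liver had 1.32-fold and 1.47-fold less of them than the stigmasterol liver while Igha was 97.2-fold less. Cd79b was at -1.09 under total-count scaling and -1.02 on the TPM scale, so that 4 genes were then counted as lower. Of all genes, 4018 were lower under total-count scaling and 3822 on the TPM scale. With no minimum, stigmasterol against high sitosterol had 6 of the 9 genes higher (15% of all genes higher and 6.29% lower), ergosterol against high sitosterol had 3 higher and 3 lower (5.74% and 8.66%), and ergosterol against stigmasterol had 4 lower (7.12% of all genes higher and 17.4% lower).

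The classes of antibody transcripts differed between the libraries. IgA made up 19.0% of heavy chain constant TPM in the high sitosterol, 6.04% in the ergosterol, 84.0% in the stigmasterol and 15.6% in the low sitosterol liver, and 3.72% in the high sitosterol adrenal against 14.4% in the low sitosterol adrenal. IgM made up 56.7% in the high sitosterol, 80.5% in the ergosterol, 5.93% in the stigmasterol and 41.3% in the low sitosterol liver, and 93.7% in the high sitosterol adrenal against 83.2% in the low sitosterol adrenal. On this per-length scale IgM led in the high sitosterol and ergosterol livers and in both adrenals, and IgA led in the stigmasterol liver. IgG took 23.6% in the high sitosterol, 11% in the ergosterol, 9.51% in the stigmasterol and 42.3% in the low sitosterol liver, where it was close to IgM, and 1.18% in the high sitosterol adrenal against 1.16% in the low sitosterol adrenal. Counted in reads, IgA was 6454 of 7994 heavy chain counts in the stigmasterol liver (80.7%, exact interval 79.9 to 81.6%) and 92 of 697 in the low sitosterol liver (13.2%, exact interval 10.8 to 15.9%). In reads the low sitosterol liver was led by IgM (50.6%, exact interval 46.9 to 54.4%), with IgG at 35.2% (exact interval 31.6 to 38.8%). Ighe, the IgE constant region, was listed at 0 in all 6 libraries.

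**Figure D3:**
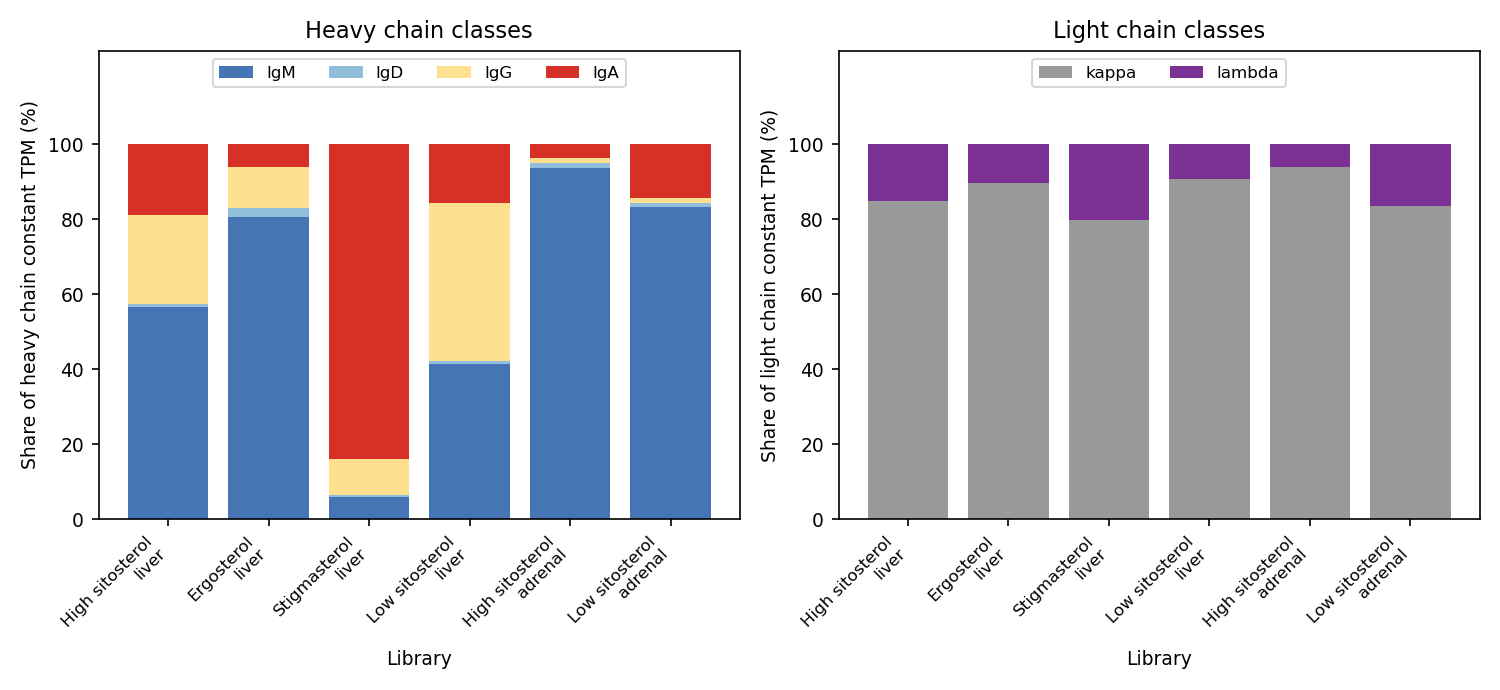
Stacked bars give the share of heavy chain constant TPM by class (left) and of light chain constant TPM by type (right) in each library, in percent. IgA fills 84.0% of the stigmasterol bar and at most 19.0% of any other, and the lambda share runs from 6.04% to 20.1%.

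The other constant region genes moved in part with Igha. Of 8 at the minimum in liver, 6 were higher with stigmasterol than with low sitosterol (median log2 2.67), 1 was higher and 2 were lower with ergosterol (median -0.37), and 3 were higher and 1 lower with high sitosterol (median 0.81); in adrenal none reached the minimum. Ighd, which mature naive B cells express beside Ighm, had 14 counts in the high sitosterol, 31 in the ergosterol, 82 in the stigmasterol and 7 in the low sitosterol liver. Ighg1 went the other way with ergosterol, with 3 counts in the ergosterol liver against 54 in the low sitosterol liver. With high sitosterol it had 29 counts and was counted as lower (log2 -1.06), though not under total-count scaling (log2 -0.87). The lambda constant gene Iglc3 had 292 counts in the stigmasterol liver and 0 in the low sitosterol liver. The Iglc genes, and the Ighg genes, are close copies of each other, so their split is uncertain. Lambda made up 15.0% of light chain constant TPM in the high sitosterol, 10.4% in the ergosterol, 20.1% in the stigmasterol and 9.19% in the low sitosterol liver, and 6.04% in the high sitosterol adrenal against 16.3% in the low sitosterol adrenal.

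Ratios of TPM within a library set J chain and antibody chain transcripts against the receptor's signalling pair, without any scaling between libraries. Secreted and membrane-bound antibody forms were not separated in them. Jchain per summed Cd79a and Cd79b was 1.71 in the high sitosterol, 0.349 in the ergosterol, 4.19 in the stigmasterol and 1.99 in the low sitosterol liver, and 1.30 in the high sitosterol adrenal against 0.886 in the low sitosterol adrenal. Igha per the same sum was 3.89, 0.450, 31.3 and 4.63 in the high sitosterol, ergosterol, stigmasterol and low sitosterol livers, and 0.679 in the high sitosterol adrenal against 3.19 in the low sitosterol adrenal. For Jchain and Igha the ergosterol liver was the lowest and the stigmasterol liver the highest of the livers. Igkc and Ighm per the same sum gave other orders. For Igkc the low sitosterol liver was the highest, at 43.2 against 40.4 in the stigmasterol liver, and the ergosterol liver was again the lowest. For Ighm the stigmasterol liver was the lowest, at 2.21, and the low sitosterol liver the highest, at 12.3. The low sitosterol sum rests on 8 Cd79a and 15 Cd79b counts. The summed receptor pair was 45.9% of the TPM of Ptprc, the general leukocyte marker CD45, in the high sitosterol, 160% in the ergosterol, 81.6% in the stigmasterol and 65.4% in the low sitosterol liver, and 37.5% in the high sitosterol adrenal against 30.1% in the low sitosterol adrenal. Ptprc itself had 507, 301, 1215 and 147 counts in the high sitosterol, ergosterol, stigmasterol and low sitosterol livers, so leukocyte transcripts as a whole differed between the livers as well; their part in the antibody genes' differences was not tested.

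Other genes of the B lineage were read from lists. Of 19 other B cell genes, 10 reached the minimum in liver, and all 10 were higher with stigmasterol (median log2 2.52), 5 with ergosterol (median 1.36) and 7 with high sitosterol (median 1.79, or 1.74 with Fcrla, at 0 in the low sitosterol liver, set at its bound). None was lower than with low sitosterol. Ltb, the lymphotoxin beta chain that organises lymphoid tissue, had 479 counts in the stigmasterol liver against 8 in the low sitosterol liver (log2 5.10). Tnfrsf13b, the receptor TACI for the survival factors BAFF and APRIL, had 137 counts in the stigmasterol liver against 2 in the low sitosterol liver, a log2 ratio of 5.12 (interval 3.48 to 8.42). Cd22, an inhibitory coreceptor of B cells, was higher with high sitosterol (log2 2.80), ergosterol (log2 1.80) and stigmasterol (log2 3.19) than with low sitosterol. In the adrenal 10 reached the minimum and Cd22 alone was higher (log2 1.47; list median 0.33). Several of these genes are also expressed outside B cells: Ebf1, for example, had 880 and 1414 counts in the high and low sitosterol adrenals and 3 to 26 in the livers.

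Pax5, the factor that holds B cell identity, had 7, 15, 25 and 0 counts in the high sitosterol, ergosterol, stigmasterol and low sitosterol livers, and 75 counts in the high sitosterol adrenal against 100 in the low sitosterol adrenal. Its order among the livers was that of Cd79a.

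Of 12 other plasma cell genes, 11 reached the minimum in liver. With stigmasterol 4 were higher and 3 lower than with low sitosterol (median log2 0.02; under total-count scaling 4 and 2, median 0.71, and on the TPM scale 4 and 1, median 0.64), with ergosterol 1 and 3 (median 0.21), and with high sitosterol 1 and 1 (median 0.34). Those higher with stigmasterol were Slamf7 (log2 3.74), Irf4 (log2 2.31), Prdm1 (log2 1.64) and Sdc1 (log2 1.33). Slamf7 encodes a surface receptor of lymphocytes, Irf4 and Prdm1 encode transcription factors of plasma cell fate, and Sdc1 encodes the plasma cell marker syndecan 1. Xbp1, a driver of the secretory apparatus, was lower with high sitosterol (log2 -1.17), ergosterol (log2 -1.58) and stigmasterol (log2 -1.70); with high sitosterol it missed the 2-fold limit under total-count scaling (log2 -0.98). Xbp1 had 7175 to 19696 counts in these livers and Sdc1 4395 to 18395, and hepatocytes express both. Tnfrsf17, the plasma cell receptor BCMA, had 1, 0, 4 and 3 counts in the high sitosterol, ergosterol, stigmasterol and low sitosterol livers, at or near the limit of detection. In the adrenal, 1 of 11 was higher (Sdc1, log2 1.51) and 1 lower (Irf4, log2 -1.69; list median 0.13).

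Most genes of B cell precursors and germinal centres had few counts. Of 7 precursor genes, only Dntt reached the minimum in liver, and it was not counted as changed. In adrenal none reached the minimum, so none was tested there. With no minimum, 1 was higher and 0 lower with high than with low sitosterol in adrenal (4.72% and 2.94% of all genes). Vpreb2 was at 0 in all libraries and Rag1 had at most 1 count. Of 6 germinal centre genes, only S1pr2, a receptor that other cells share, reached the minimum, and it was higher with stigmasterol (log2 2.36) and ergosterol (log2 1.29).

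Genes that attract, feed or transport were measured beside the antibody genes. Of 13, 7 reached the minimum in liver. With stigmasterol 4 were higher than with low sitosterol: Tnfsf13b (BAFF, log2 2.99), Itgb7 (a chain of the gut-homing integrin, log2 2.0), Itga4 (its partner, log2 1.19) and Tnfsf13 (APRIL, log2 1.11). Pigr, the receptor that carries polymeric IgA into bile, was lower with stigmasterol (log2 -1.09) and higher with ergosterol (log2 1.02), while Igha was at 5.39 with stigmasterol and -1.21 with ergosterol. The stigmasterol ratio of Pigr was -0.39 under total-count scaling and -0.16 on the TPM scale, so it was then not counted as lower, as Igha with ergosterol was not on the TPM scale. With high sitosterol none of the 7 was counted. In the adrenal, Cxcl13, the B cell chemokine, was higher with high than with low sitosterol (243 counts against 48, log2 2.10), as was Il6 (139 against 1), while Ccr10 was lower (24 against 45).

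Markers of other cells moved as well. All 5 class II genes, which B cells share with macrophages and dendritic cells, were higher with stigmasterol (median log2 2.94) and high sitosterol (median 1.76) than with low sitosterol and none was with ergosterol (median 0.78; 1 under total-count scaling and on the TPM scale) or in adrenal (median 0.46). Of 8 T and NK cell markers at the minimum, 5 were higher with stigmasterol (median 1.45), 3 higher and 1 lower with high sitosterol (median 0.72) and 1 lower with ergosterol (0 under total-count scaling or RLE size factors); 3 of 4 were higher in the adrenal. Of 7 macrophage markers, 2 were higher and 2 lower with stigmasterol (on the TPM scale 4 and 0), 7 higher with high sitosterol, 2 higher with ergosterol, and 3 of 6 higher in the adrenal. Of 4 hepatocyte markers, 1 was lower with stigmasterol than with low sitosterol (median -0.86) and 3 were lower with stigmasterol than with high sitosterol (median -1.17); under total-count scaling none was lower in either comparison (medians -0.17 and -0.67). Lists chosen after values had been seen gave markers of tissues that could be carried along: the lymphoid stroma chemokines Ccl19 (377 counts against 50, log2 2.17) and Ccl21a (318 against 66, log2 1.53) were higher in the stigmasterol than in the low sitosterol liver, and Glycam1 was at 0 in all libraries. The gut factors Cdx1 and Cdx2 were at 0 in all 6 libraries, Muc2 had 2 counts in the stigmasterol liver, and the 5 pancreatic acinar genes had at most 2 counts there; Vil1, which gut and bile duct epithelium share, had 162 counts with stigmasterol against 6 with low sitosterol. With no minimum, 2 of the 6 intestinal markers were higher with stigmasterol than with low sitosterol and 0 lower (18.5% and 8.86% of all genes). The part of any of these cells in the antibody genes' values was not tested.

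The variable (V) segments, which join to the constant regions and form the antigen-binding end, have rows of their own. A row exists for 183 heavy chain segments (Ighv) and 160 kappa segments (Igkv). Summed Ighv counts were 23 in the high sitosterol, 38 in the ergosterol, 613 in the stigmasterol and 23 in the low sitosterol liver, and 142 in the high sitosterol adrenal against 76 in the low sitosterol adrenal. In the stigmasterol liver these were spread over 56 rows, with Ighv5-17 leading at 124 counts (20.2%, exact interval 17.1 to 23.6%); the other livers had too few counts to rank, with a leading row of 4 to 6 counts. Its 812 kappa counts were spread over 65 rows, led by Igkv5-39 (123.9 estimated counts) and Igkv5-48 (123 counts). The inverse Simpson number, the count of equally used rows that would give the same concentration, was 12.5 for Ighv and 15.3 for Igkv in that liver. Lambda V counts there were 279.7 of 300 from Iglv1.

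The high sitosterol adrenal had the most concentrated heavy chain and kappa usage of the 6 libraries, in counts not matched for depth. In the high sitosterol adrenal the inverse Simpson number was 4.74 for Ighv and 3.87 for Igkv, against 10.7 and 9.34 in the low sitosterol adrenal. Ighv7-1 had 48 of the 142 heavy counts in the high sitosterol adrenal (33.8%, exact interval 26.1 to 42.2%) and 0 of 76 in the low sitosterol adrenal. Ighv12-3 had 41 counts with high sitosterol (28.9%, exact interval 21.6 to 37.1%) and 0 with low sitosterol, which allows a share of up to 3.95%. The kappa segment Igkv4-91 had 118 of 327 counts with high sitosterol (36.1%, exact interval 30.9 to 41.6%) and 0 of 114 with low sitosterol, Igkv15-103 had 110 against 1, and Igkv7-33 had 33 against 1. In the low sitosterol adrenal the leading rows were Ighv11-2, with 0 counts in the high and 13 of 76 in the low sitosterol adrenal (17.1%, exact interval 9.43 to 27.5%), and Igkv14-126, with 2 in the high and 30 of 114 in the low sitosterol adrenal (26.3%, exact interval 18.5 to 35.4%).

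**Figure D4:**
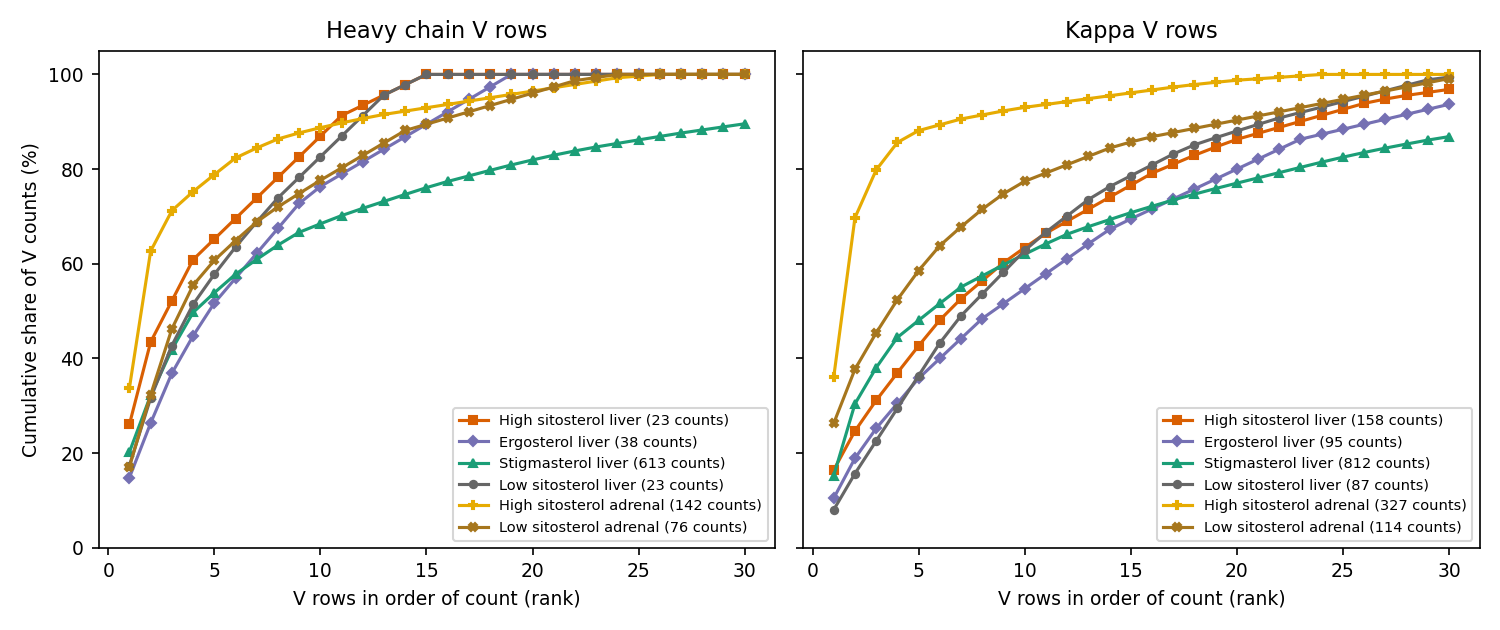
The cumulative share of V counts, in percent, is plotted against the rank of the V rows (first 30) for heavy and kappa segments in each library, with the summed counts in the legend. In the kappa panel the high sitosterol adrenal curve is the highest at all 30 ranks. In the heavy chain panel it is the highest at the first 10 ranks, and the high sitosterol liver lies above it from rank 11 to 25. The stigmasterol liver curve is the slowest heavy chain curve from rank 7 on.

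Several of these adrenal segments belong to pairs known from other work, chosen here after their counts had been seen. Ighv11-2 with Igkv14-126, and Ighv12-3 with Igkv4-91, are the pairs that mouse B-1a cells use for antibodies to phosphatidylcholine, a membrane lipid; Ighv7-1 with Igkv7-33 is that of the T15 antibody to phosphorylcholine. In the livers Ighv11-2 had 0 counts throughout and Igkv14-126 0 or 1, Ighv12-3 had 0 or 1, and Igkv4-91 had 9, 4, 3 and 0 in the high sitosterol, ergosterol, stigmasterol and low sitosterol livers. In the same order of livers Ighv7-1 had 1, 0, 0 and 0 counts and Igkv7-33 had 1, 0, 11 and 0. Igkv15-103, in none of these pairs, had 13, 6, 13 and 4. The tables hold summed counts per row and do not show which heavy chain joined which light chain. Zbtb32, a gene known from B-1 and memory B cells, had 164 counts in the high and 37 in the low sitosterol adrenal (log2 1.91), Bhlhe41, which many cells express, had 2003 and 727 (log2 1.23), and Cd5, on B-1a and T cells, had 13 and 7. Of these 3 genes, 1 reached the minimum in liver. It was lower than with low sitosterol with high sitosterol (log2 -1.88), ergosterol (log2 -4.18) and stigmasterol (log2 -3.29). Which liver cells its transcripts came from was not measured, so these ratios are not a measure of B-1 cells.

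**Figure D5:**
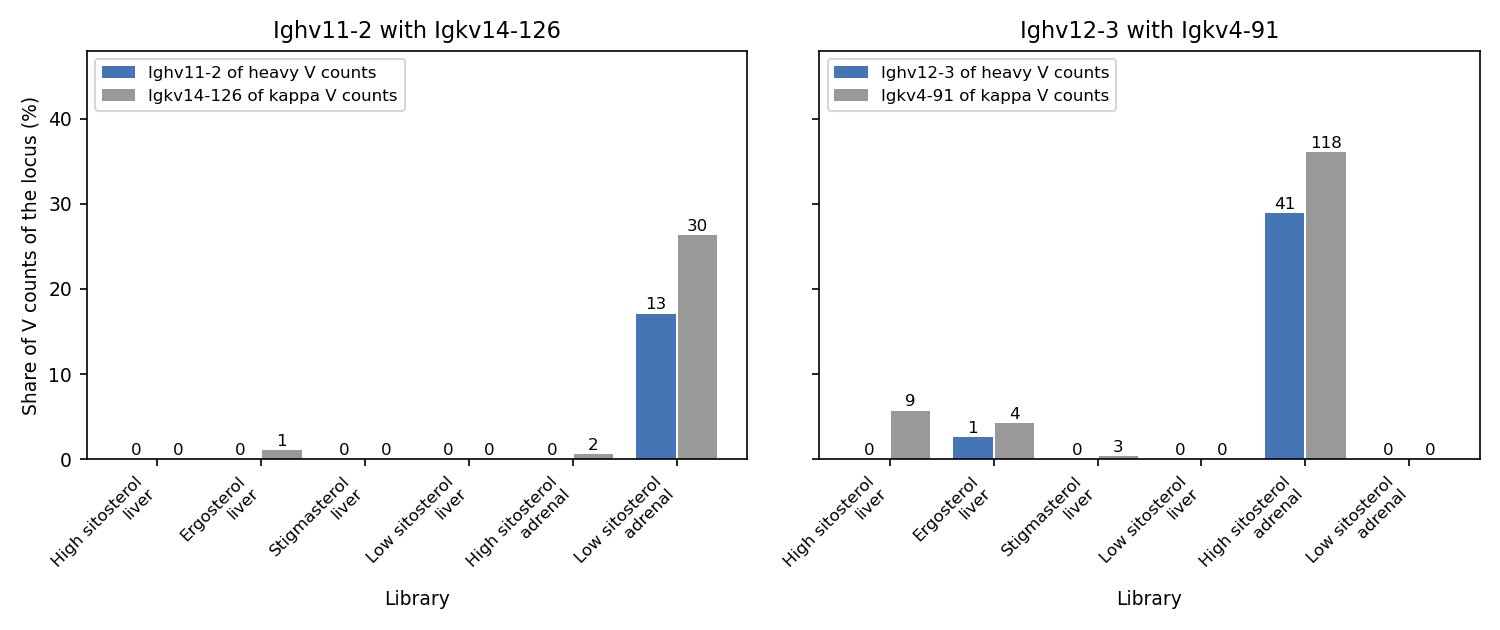
Bars give the share of each locus' V counts, in percent, for 2 heavy and kappa segment pairs in each library, with the rounded counts above the bars. The first pair stands out in the low sitosterol adrenal (13 and 30 counts) and the second in the high sitosterol adrenal (41 and 118 counts).

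The germline ends of these segments are shown because they carry the start of the third complementarity-determining region, the part of an antibody that most often meets the antigen. Capitals mark the conserved cysteine codon and the germline bases kept after it. The final annotated bases were left off: 6 for Ighv7-1, 5 for Ighv12-3 and 4 for Igkv4-91. For Ighv11-2, Igkv14-126, Igkv7-33 and Igkv5-39, 2 each were left off, and 0 for Ighv5-17. Sequences are from GENCODE M21 on GRCm38, chromosome 12 for heavy and chromosome 6 for kappa segments, read on the strand of the gene.
Ighv11-2: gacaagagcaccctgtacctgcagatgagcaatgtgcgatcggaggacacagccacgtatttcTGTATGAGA
Igkv14-126: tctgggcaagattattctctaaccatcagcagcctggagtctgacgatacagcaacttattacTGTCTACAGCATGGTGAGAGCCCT
Ighv12-3: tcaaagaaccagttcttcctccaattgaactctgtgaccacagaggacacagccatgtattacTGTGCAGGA
Igkv4-91: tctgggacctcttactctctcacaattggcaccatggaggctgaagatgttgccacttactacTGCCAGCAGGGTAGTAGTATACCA
Ighv7-1: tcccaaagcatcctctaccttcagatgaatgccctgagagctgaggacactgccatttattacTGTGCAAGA
Igkv7-33: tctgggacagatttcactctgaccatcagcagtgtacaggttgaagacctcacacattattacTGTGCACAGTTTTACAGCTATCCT
The leading heavy and kappa segments of the stigmasterol liver are given for contrast.
Ighv5-17: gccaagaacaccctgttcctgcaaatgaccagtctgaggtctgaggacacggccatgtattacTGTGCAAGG
Igkv5-39: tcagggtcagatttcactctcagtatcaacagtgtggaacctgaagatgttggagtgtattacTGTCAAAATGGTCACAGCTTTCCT
Over the last 270 bases compared, Ighv12-3 was 79.6% identical to its closest row (Ighv3-2) and Igkv4-91 was 87.8% identical to its own (Igkv4-60). Igkv14-126 and Ighv5-17 reached 90.4% and 90.7%, and Ighv11-2 was 98.5% identical to Ighv11-1, which had 0 counts in all libraries, so reads of that pair of rows are the least certain. Somatic mutation and junctions also move reads away from germline rows, and the share of antibody reads lost in this way was not measured.

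Patterns over the 6 libraries were compared as the root mean square difference of centred log2(TPM + 0.1). Of 15297 genes with at least 1 TPM in at least 1 library, those outside the immunoglobulin loci were compared. The 5 closest to Jchain were H2-T-ps (0.39), Gal3st2 (0.40), Cxcl5 (0.40), Fam180a (0.43) and Degs2 (0.43). Gal3st2 had 0, 0, 1.55 and 0 TPM in the high sitosterol, ergosterol, stigmasterol and low sitosterol livers. Cxcl5 had 0.143, 0, 1.16 and 0 TPM in the same order. The distances of these 2 genes therefore depend on the added 0.1 TPM. Those closest to Cd79a were Rab11fip4 (0.16), Cd79b (0.30), Lamb3 (0.31), Sgol1 (0.33) and Cd3e (0.34). Sgol1 had 0.0761 TPM in the high and 0.0179 in the low sitosterol liver, and Cd3e had 0.0969 in the low sitosterol liver. With Cd79a at 0.130 TPM in the low sitosterol liver, these distances depend on the added 0.1 TPM as well. Rab11fip4, an adaptor of vesicle traffic, had 0.469, 1.29, 2.32 and 0.235 TPM in the high sitosterol, ergosterol, stigmasterol and low sitosterol livers, against 0.346, 1.08, 2.05 and 0.130 for Cd79a. Cd79b, the partner of Cd79a in the receptor, was the second closest of the genes compared.

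Promoters were searched for 2 motifs of B cell factors on both strands, in RefSeq windows around gene starts (GRCm38.p6). The octamer ATGCAAAT, bound by OCT1 and OCT2 with OBF1, was found in 570 of 32851 windows (1.74%), and CCCNNGGG, the core of the EBF1 motif, in 4491 (13.7%). Jchain, Cd79a and Pou2af1 had a window in the table, and none of these 3 held either run of letters.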

How the data were processed

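The authors deposited estimated counts and TPM per gene symbol for 6 libraries, made with a TruSeq v2 kit per the labels' protocols. The submitters' processing notes name the build mm10 and the tools kallisto 0.43.1, HISAT2 2.0.5 and Trimmomatic 0.33 with no role; the annotation is not stated in the sources used here. One row that names no gene held 0% of counts and was left out. Estimated counts were rounded to whole numbers and scaled with TMM factors from edgeR 4.0.16 (R 4.3.3) within each tissue (liver: 0.95 high sitosterol, 0.93 ergosterol, 1.35 stigmasterol, 0.83 low sitosterol; adrenal: 1.01 high and 0.99 low sitosterol). Log2 ratios used a prior count of 0.5, and exact (Clopper-Pearson) 95% intervals were computed with SciPy 1.17.1; the procedure was tested on simulated data. The minimum was 1 CPM in at least 1 library of the tissue. PCR copies are not independent molecules, so intervals and limits cover counting error only. The 9 genes and the lists were chosen with earlier results of these data known. Named list genes were up to 4 per list with the largest counted ratio; others were named for their role after their values had been seen. The 7 comparisons were recomputed with total counts, RLE size factors, TPM, other fold limits, no minimum and another prior count.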

Additional observations from a re-analysis of the deposited data

Results flagged for a closer look

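Igha differed in direction between tissues under the same pair of diets. In liver its log2 ratio of high over low sitosterol was 0.84 (4.04 scaled CPM with high and 2.25 with low sitosterol), and in the adrenal it was -1.385 (1.37 scaled CPM with high and 3.58 with low sitosterol). Both intervals excluded equality, each side rests on 1 mouse, and the difference between the tissues was not tested. The 2 adrenal libraries lacked Y-linked transcripts although labelled as male.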

How the results depend on the processing

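No paired analysis was possible because each group had 1 library, and for the same reason no replicate could be left out. RLE size factors changed none of the 14 counts of genes called and a prior count of 5 kept all 63 log2 ratios within their intervals. Total counts moved 15 of the 63 ratios and the TPM scale 17, with no called gene reversed. Of uncalled ratios, Jchain with ergosterol over low sitosterol turned to 0.06 on the TPM scale, and Ms4a1 with ergosterol over stigmasterol (0.41) turned to -0.11 under total counts and -0.02 on the TPM scale. The median of all genes shifted, against low sitosterol, by 0.69 for stigmasterol, 0.16 for ergosterol and 0.19 for high sitosterol under total counts, and by 0.86, 0.34 and 0.26 on the TPM scale. All genes counted as higher and lower were 1160 and 575 for high against low sitosterol in liver (1518 and 419 under total counts), 809 and 777 for ergosterol (1139 and 610; on the TPM scale 1622 and 395) and 2903 and 1042 for stigmasterol (5285 and 401). They were 2204 and 748 for stigmasterol against high sitosterol (3886 and 347), 827 and 1198 for ergosterol against high sitosterol (on the TPM scale 1042 and 948), and 949 and 2594 for ergosterol against stigmasterol (426 and 4018). On the TPM scale, all genes counted as higher and lower were 1430 and 324 for high against low sitosterol in liver. For stigmasterol against low sitosterol they were 6223 and 311 on that scale. For high against low sitosterol in liver, the 2 genes counted as higher became 6 under total counts, 5 on the TPM scale, 5 at 1.5-fold and 0 at 3-fold. No share of all genes was taken at 1.5-fold or 3-fold in any comparison, so counts at those limits have no background here. For ergosterol against low sitosterol, the 1 lower gene became 0 on the TPM scale and 0 at 3-fold, and without the minimum 5 were higher. Without the minimum 8 were higher for stigmasterol against low sitosterol and 5 for the adrenal comparison, where 3-fold left 1 higher and 0 lower. For stigmasterol against high sitosterol, 1.5-fold gave 1 lower gene. For ergosterol against high sitosterol, 3 were higher without the minimum, 2 at 1.5-fold and 0 at 3-fold, and 1 was lower at 3-fold. For ergosterol against stigmasterol, 1.5-fold gave 1 higher gene. These limits follow from the threshold and the genes tested; the cause of the TPM changes was not tested. On estimated counts, which are not per length, 16 of 24 class shares moved beyond their interval: IgA, IgM, IgG and lambda were 14.9%, 65.1%, 18.9% and 12.4% in the high sitosterol liver; IgA, IgM and IgG were 4.16%, 85.1% and 7.74% in the ergosterol liver; IgA, IgM and lambda were 80.7%, 9.02% and 16.8% in the stigmasterol liver; IgM and IgG were 50.6% and 35.2% in the low sitosterol liver; IgA and IgM were 2.54% and 95.1% in the high sitosterol adrenal and 10% and 87.6% in the low sitosterol adrenal. Depth limited Ms4a1, Mzb1 and Pou2af1 most, since their highest count in any library was 44.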
